A study of Mus musculus with 2 samples.

Results

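The transcripts described here belong to 8 genes of the complement system: C1qa, C1qb and C1qc, which encode the chains of the recognition protein C1q; C4b and C3, the substrates of the cascade; C3ar1 and C5ar1, the receptors of the fragments released when C3 and C5 are cut; and Serping1, which encodes the C1 inhibitor. The genes were taken by symbol from the list of counted features, and all 8 were found once among 33696 features. Their levels were read in 13 cell classes of mouse brain, in 1 droplet library per treatment. The fluconazole library came from Shank3-/- mice that drank water with fluconazole, an antifungal azole, for 2 weeks, and the vehicle library from Shank3-/- mice labelled MOCK and handled as vehicle controls. Both groups thus lacked Shank3, a scaffold protein of excitatory synapses, and no wild-type group was analysed here. The labels do not state which part of Shank3 is deleted or how many mice each library holds, and nothing says that the mice were pooled. They name the tissue as brain, whereas the design text names the prefrontal cortex. The design text also speaks of cells and nuclei, while the extraction text describes nuclei alone, so droplets are called barcodes.

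Complement is a chain of proteins that tags surfaces for removal. In its classical branch C1q binds a target, the attached proteases cut C4 and then C3, and fragments of C3 stay on the surface while small fragments of C3 and C5 are released and bind receptors on myeloid cells. In the brain, microglia are the main makers of C1q, and C1q and C3 are known for marking synapses that microglia then engulf during development. The C1 inhibitor stops the proteases attached to C1q.

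The fluconazole library held 12637 deposited barcodes with 78380009 unique molecular identifiers (UMIs, 1 per captured transcript), and the vehicle library 14924 barcodes with 76891692 UMIs. After filters and the removal of called doublets, 10610 fluconazole and 12892 vehicle barcodes were kept, with medians of 5258 UMIs in the fluconazole and 4327 UMIs in the vehicle library, so the fluconazole barcodes were deeper. The libraries shared 45 barcode sequences, 31 of them kept in both. Classes were named from marker genes: all 11 microglial markers were detected in the microglial class of both libraries, all 8 border macrophage markers in border macrophages and all 10 mural markers in mural cells. Since the names rest on these markers, their detection is no separate check on the names. Striatal spiny neurons and neuroblasts, which are found outside the cortex, were present in both libraries. Levels are CPM, the UMIs of a gene scaled to the total UMIs of the same class and library. With 1 library per treatment no test between treatments was possible, and all intervals are 95% intervals that cover counting error only, not differences between mice or preparations.

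The 3 C1q genes lie side by side on mouse chromosome 4 (RefSeq, GRCm38.p6): C1qb at chr4:136880126-136886200, C1qc at chr4:136889801-136892936 and C1qa at chr4:136895916-136898844. C3 lies at chr17:57203967-57228136, C4b at chr17:34728139-34743902, C3ar1 at chr6:122847140-122856157, C5ar1 at chr7:16246743-16259540 and Serping1 at chr2:84765360-84775444. RefSeq promoter windows of 300 bases over the annotated start were at hand for 5 of the 8 genes, and C1qa, C4b and Serping1 had none in the table used. The windows of C1qb (chr4:136886151-136886450), C1qc (chr4:136892865-136893164) and C3 (chr17:57228087-57228386), all read 5′ to 3′ on the minus strand, are shown because the C1q genes had the most similar levels across classes while C3 lay in another class. Capitals mark the match to GAGGAA, the PU box bound by the myeloid factor PU.1, in C1qb and (as its reverse complement) in C1qc, and to TTGCNNAA, a C/EBP motif, in C3.
C1qb: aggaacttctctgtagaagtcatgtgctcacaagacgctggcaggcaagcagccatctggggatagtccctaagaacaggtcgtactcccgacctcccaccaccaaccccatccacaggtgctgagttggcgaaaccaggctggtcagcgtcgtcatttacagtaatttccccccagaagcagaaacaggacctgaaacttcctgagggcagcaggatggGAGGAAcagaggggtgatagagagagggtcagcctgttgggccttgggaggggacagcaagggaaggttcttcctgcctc
C1qc: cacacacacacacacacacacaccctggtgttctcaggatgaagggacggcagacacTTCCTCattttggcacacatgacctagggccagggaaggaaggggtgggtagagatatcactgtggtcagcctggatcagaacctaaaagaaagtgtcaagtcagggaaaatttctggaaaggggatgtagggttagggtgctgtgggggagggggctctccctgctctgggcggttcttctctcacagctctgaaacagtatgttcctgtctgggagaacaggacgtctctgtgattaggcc
C3: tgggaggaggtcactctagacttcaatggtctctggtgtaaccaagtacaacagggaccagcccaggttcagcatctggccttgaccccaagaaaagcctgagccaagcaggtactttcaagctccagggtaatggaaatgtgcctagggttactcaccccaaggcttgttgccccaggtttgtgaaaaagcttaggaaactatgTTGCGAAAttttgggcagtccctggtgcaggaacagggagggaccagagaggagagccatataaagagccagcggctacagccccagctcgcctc
The PU box began 30 bases before the start of C1qb (position -30) and at -193 in C1qc, and the C/EBP match at -45 in C3. Searched on both strands, GAGGAA was present in 28.3% of 32851 windows of the same length and TTGCNNAA in 10.8%, so either match is common. The interferon-linked GAS motif TTCNNNGAA (8.30% of windows), the interferon-stimulated response element (3.44%) and the NF-kB motif GGGNNTTCC (5.82%) had no match in the 5 windows, and the windows of C3ar1 and C5ar1 held none of the 5 motifs. No marked match overlapped another motif.

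C1q was a transcript of microglia and of border macrophages, the macrophages of the meninges and vessel walls, in both libraries. C1qa stood at 4459 CPM (4426 to 4493) in fluconazole microglia and 5052 CPM (5016 to 5088) in vehicle microglia. C1qb stood at 3904 CPM with fluconazole and 4449 CPM with vehicle and C1qc at 3695 CPM with fluconazole and 4100 CPM with vehicle in the same classes. All 3 chains were lower in fluconazole microglia, by a small margin that exceeded counting error: the log2 ratios of fluconazole over vehicle were -0.18 (-0.19 to -0.16) for C1qa, -0.19 (-0.20 to -0.17) for C1qb and -0.15 (-0.17 to -0.13) for C1qc. Summed, the chains made up 1.21% of all UMIs in fluconazole microglia and 1.36% in vehicle microglia.

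Border macrophages carried C1q at the level of microglia, and there the libraries lay together. C1qa stood at 5319 CPM (5158 to 5484) in fluconazole border macrophages (129 barcodes) and 5349 CPM (5184 to 5518) in vehicle border macrophages (158 barcodes), a log2 ratio of -0.01 (-0.07 to 0.06). The ratio was -0.03 (-0.10 to 0.04) for C1qb and 0.00 (-0.08 to 0.07) for C1qc. In both libraries C1qa was higher in border macrophages than in microglia, with intervals apart. C1qc was lower in vehicle border macrophages (3788 CPM) than in vehicle microglia (4100 CPM), and close in the fluconazole library (3779 CPM in border macrophages and 3695 CPM in microglia, with intervals of 3643 to 3918 and 3664 to 3726).

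The share of the chains in all C1q UMIs also set the 2 cell classes apart. In fluconazole border macrophages 40.5% of C1q UMIs were C1qa (39.6 to 41.5), 30.7% C1qb and 28.8% C1qc, and in vehicle border macrophages 40.4% (39.4 to 41.4), 31.0% and 28.6%. In microglia C1qa made up 37.0% (36.8 to 37.2) of C1q UMIs in the fluconazole library and 37.1% (36.9 to 37.4) in the vehicle library. Microglial C1qc made up 30.6% (30.4 to 30.9) in the fluconazole and 30.1% (29.9 to 30.3) in the vehicle library. The share of each chain differed between the classes beyond counting error in both libraries. Between libraries the intervals overlapped for every chain in border macrophages and for C1qa and C1qb in microglia, while those of microglial C1qc lay apart. These intervals are exact binomial ones.

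Counted per barcode rather than as CPM, the direction in microglia turned. A microglial barcode held 74.3 C1q UMIs on average in the fluconazole library and 65.1 in the vehicle library, at median depths of 5992 UMIs in the fluconazole and 4587 UMIs in the vehicle library. At least 99.0% of microglial barcodes held a UMI of each chain in both libraries. Per cell content and depth of capture cannot be told apart from these counts.

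**Figure D1:**
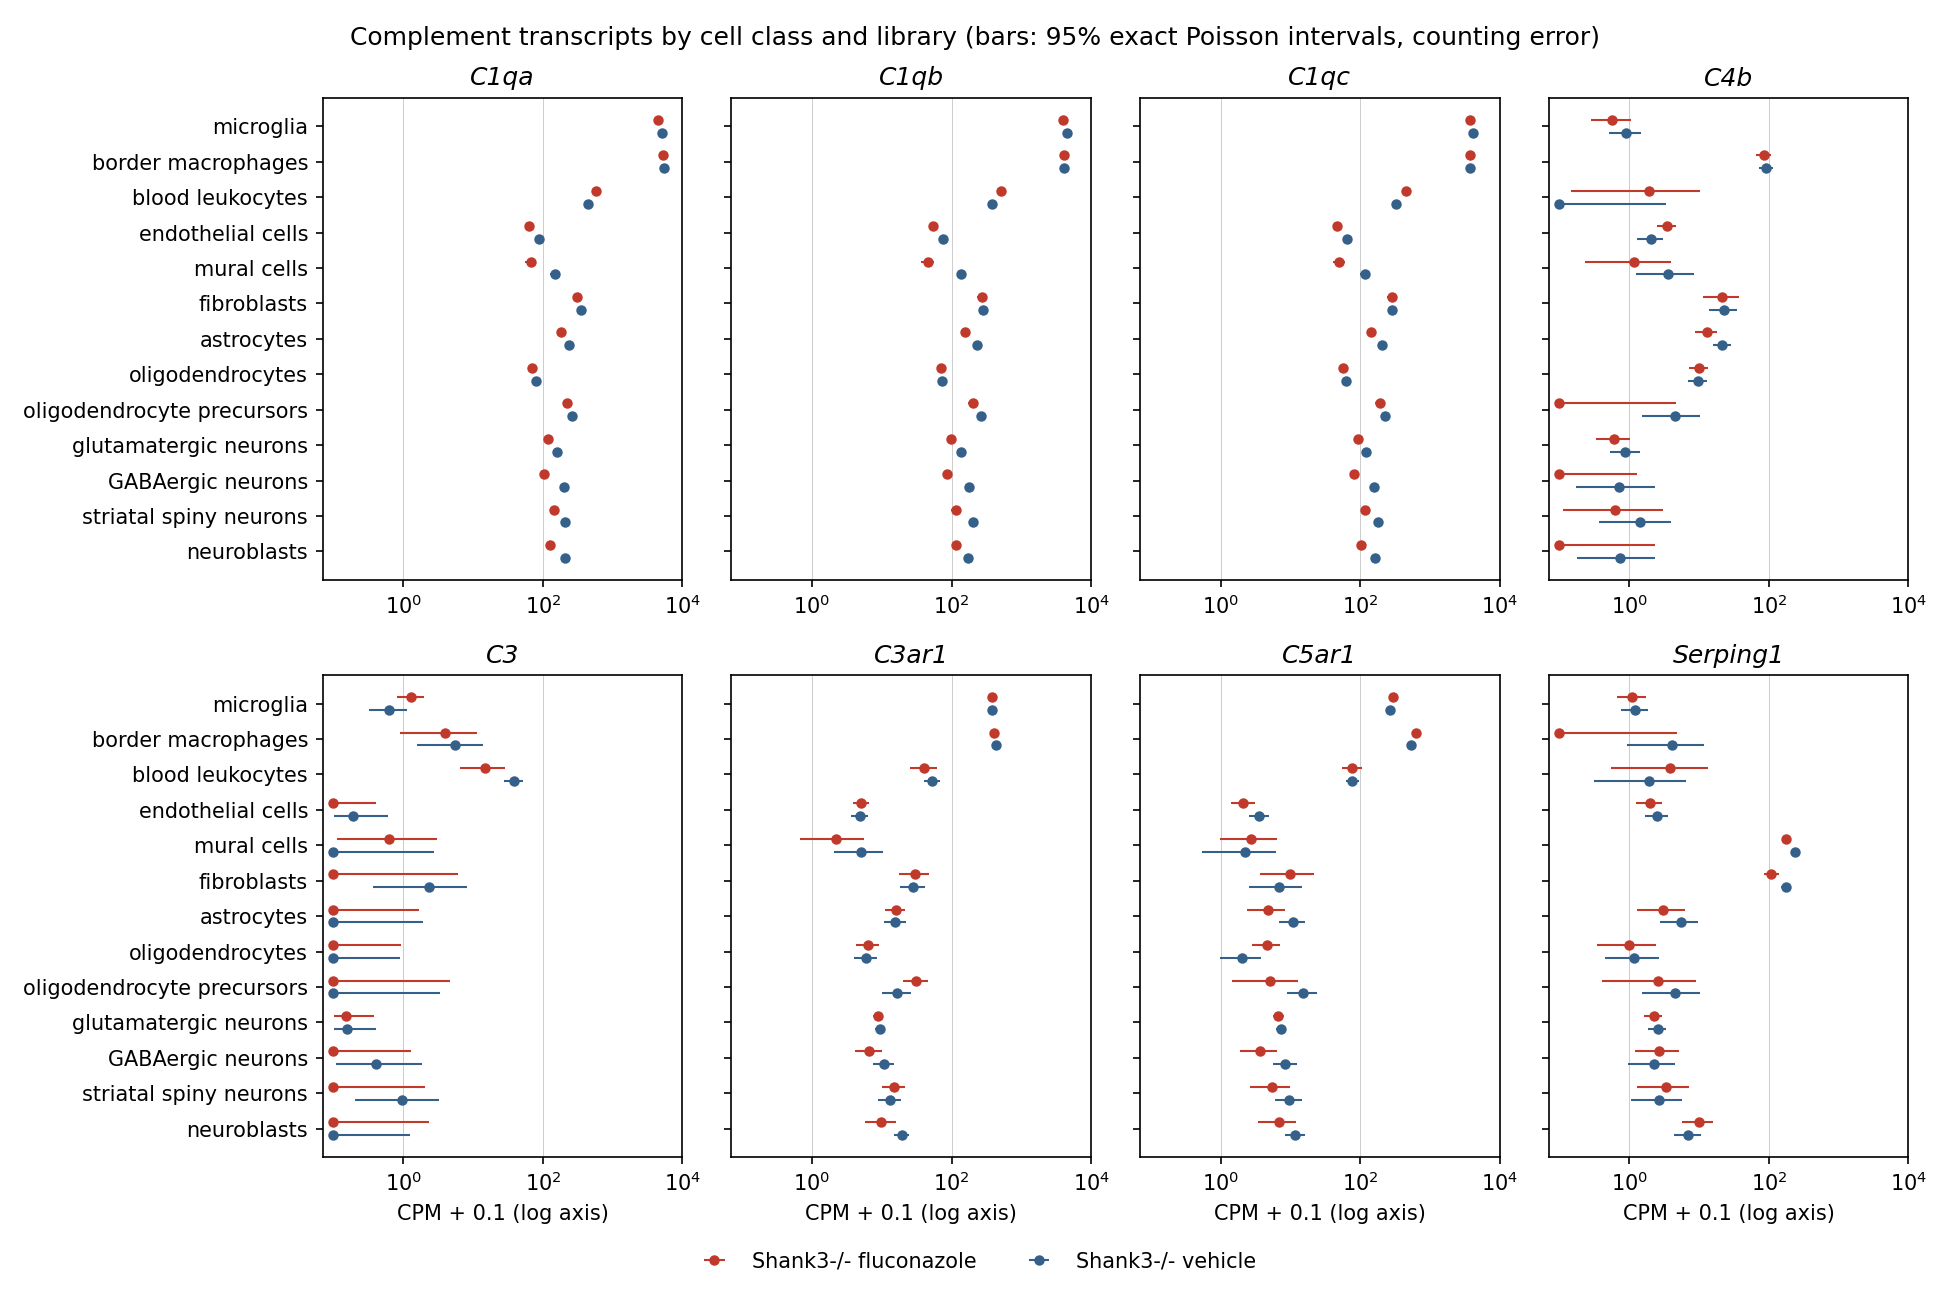
Level of each of the 8 genes (CPM + 0.1, log axis) in 13 cell classes, with the fluconazole library above the vehicle library in each class and 95% exact Poisson bars for counting error. The C1q chains and both receptors peak in microglia and border macrophages, C4b in border macrophages (85.2 CPM with fluconazole and 91.4 CPM with vehicle), C3 in blood leukocytes (14.7 CPM with fluconazole and 38.5 CPM with vehicle) and Serping1 in mural cells (174.5 CPM with fluconazole and 239.8 CPM with vehicle).

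Of the 8 members, 7 had at least 20 UMIs over both libraries in microglia, the minimum for a ratio. At least 1.5-fold higher in fluconazole microglia was 1 of the 7, C3, against 3.75% of 15592 genes with enough UMIs, and none was 1.5-fold lower, against 5.63%. That C3 value rests on 18 fluconazole and 8 vehicle UMIs, and its interval includes equal levels. The median log2 ratio of the 7 members was -0.15, beside 0.00 for all 15592 genes.

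Microglia were not uniform in these genes. Clustered again without the complement genes, they formed 4 clusters with at least 50 barcodes in each library, numbered here 0 to 3. Cluster 0 (910 fluconazole and 975 vehicle barcodes) was led by chemokine and cytokine genes, Ccl7, Ccl2 and Il1b among them. Cluster 1 (536 fluconazole and 1084 vehicle barcodes) was led by Klf2 and the heat shock genes Dnajb1, Hspa1a and Hspa1b, cluster 2 (734 fluconazole and 698 vehicle barcodes) by Tmx4, Klf4 and Ptpro, and cluster 3 (150 fluconazole and 182 vehicle barcodes) by Pde4c among others. Of microglial barcodes, cluster 1 took 22.02% in the fluconazole and 34.0% in the vehicle library.

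C1q was highest in cluster 1 among these 4, at 14426 CPM (14283 to 14570) in the fluconazole and 14960 CPM (14847 to 15074) in the vehicle library. It was lowest in cluster 2, at 11015 CPM (10922 to 11110) in the fluconazole and 12196 CPM (12082 to 12310) in the vehicle library. Within clusters the fluconazole library was lower in each of the 4: the log2 ratios were -0.16 in cluster 0, -0.05 in cluster 1, -0.15 in cluster 2 and -0.13 in cluster 3, with every interval below 0. The lower level was thus seen inside each of these clusters. The share of cluster 1, the richest of the 4 in C1q, was lower in the fluconazole library too, and the part of the cluster mix in the class ratio was not tested. Averaged over the 4 clusters with equal weight, the ratio of C1qa stood at -0.12, C1qb at -0.13 and C1qc at -0.12.

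The split by nuclear RNA gave a like picture. In 4 bins of microglial barcodes by their share of Malat1, a nuclear RNA, the C1q sum stood between -0.18 and -0.13, below 0 in every bin. Across single microglial barcodes the chains followed each other: Pearson's r of log-scaled counts was 0.66 for C1qa and C1qb in the fluconazole library (2434 barcodes) and 0.62 in the vehicle library (3184 barcodes), where all points of a library share its preparation and depth.

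**Figure D2:**
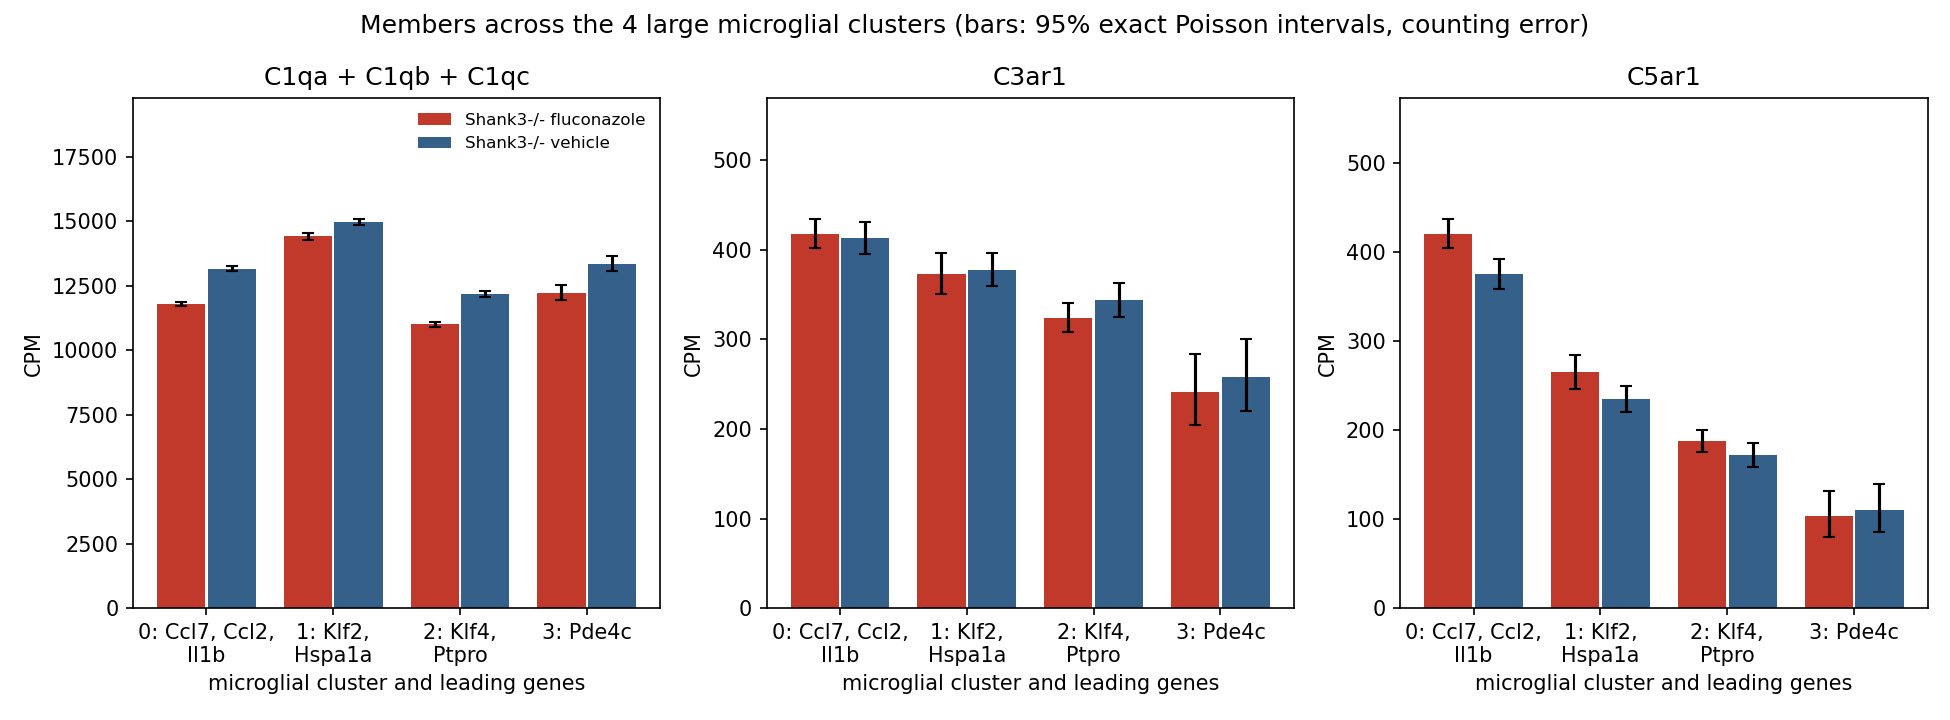
CPM of the summed C1q chains, C3ar1 and C5ar1 in 4 microglial clusters, fluconazole bars left of vehicle bars, with 95% exact Poisson bars for counting error. C1q is lower in the fluconazole library in all 4 clusters, and C5ar1 runs from about 420 CPM with fluconazole and 375 CPM with vehicle in cluster 0 to 103 CPM with fluconazole and 110 CPM with vehicle in cluster 3.

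Outside the myeloid classes C1q was found everywhere at a low level. In the 10 classes other than microglia, border macrophages and blood leukocytes, the C1q sum ranged from 1.35% of the microglial CPM (endothelial cells) to 7.18% (fibroblasts) in the fluconazole library, and from 1.57% (oligodendrocytes) to 6.79% (fibroblasts) in the vehicle library. Together these classes held 6.60% of all C1q UMIs in the fluconazole and 8.14% in the vehicle library, while microglia and border macrophages held 92.5% in the fluconazole and 90.8% in the vehicle library. Fibroblasts stood at 865 CPM with fluconazole and 923 CPM with vehicle, oligodendrocyte precursors at 620 CPM with fluconazole and 754 CPM with vehicle, astrocytes at 483 CPM with fluconazole and 673 CPM with vehicle and glutamatergic neurons at 311 CPM with fluconazole and 420 CPM with vehicle.

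With called doublets left out and all other barcodes counted, most classes held C1q within the range in which they held other microglial genes. As a yardstick served 12 such genes, among them Csf1r, Cx3cr1, P2ry12 and Tmem119, each as a percentage of its own microglial CPM. The C1q sum lay within the range of the 12 in 10 of 10 classes in the fluconazole library and in 9 of 10 in the vehicle library, the exception being mural cells (2.96%, lowest yardstick gene 3.03%). In astrocytes C1q stood at 4.01% in the fluconazole library, beside a yardstick median of 4.41%, and at 4.95% in the vehicle library, beside 4.67%. Glutamatergic neurons stood at 2.58% beside 2.47% in the fluconazole library and at 3.08% beside 2.90% in the vehicle library. These percentages depend on the barcodes counted: with doublets kept, astrocytes stood at 8.14% with fluconazole and 8.47% with vehicle, and without the 1% of barcodes richest in C1q at 1.98% with fluconazole and 3.05% with vehicle. In UMIs per barcode glutamatergic neurons stood at 5.22% with fluconazole and 5.90% with vehicle. The yardstick was not recomputed under these settings.

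The chain proportions outside the myeloid classes lay close to those of microglia. Pooled over the 10 classes, C1qa made up 37.9% of 13648 C1q UMIs in the fluconazole library (37.1 to 38.7) and 37.6% of 19461 in the vehicle library (36.9 to 38.3). Both stood close to the microglial 37.0% (fluconazole) and 37.1% (vehicle) and under the 40.5% (fluconazole) and 40.4% (vehicle) of border macrophages. Under the settings for which the yardstick was computed, C1q could not be told apart from the background that other microglial genes left in the same classes, and it is not read as expression by neurons, glia or vessel cells.

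The UMIs were spread unevenly over barcodes. Of glutamatergic barcodes, 84.5% held a C1q UMI in the fluconazole and 86.0% in the vehicle library, at median depths of 11062 UMIs in the fluconazole and 7751 UMIs in the vehicle library. The 1% of these barcodes with the most C1q held 25.4% of the C1q UMIs of the class in the fluconazole and 21.4% in the vehicle library. In astrocytes that 1% held 52.8% in the fluconazole library, with up to 133 UMIs in 1 barcode, and 40.7% in the vehicle library, with up to 78. After thinning to 1500 UMIs per barcode, a C1q UMI was found in 27.9% of fluconazole and 36.2% of vehicle glutamatergic barcodes, against 100.0% of fluconazole and 99.97% of vehicle microglial barcodes.

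**Figure D3:**
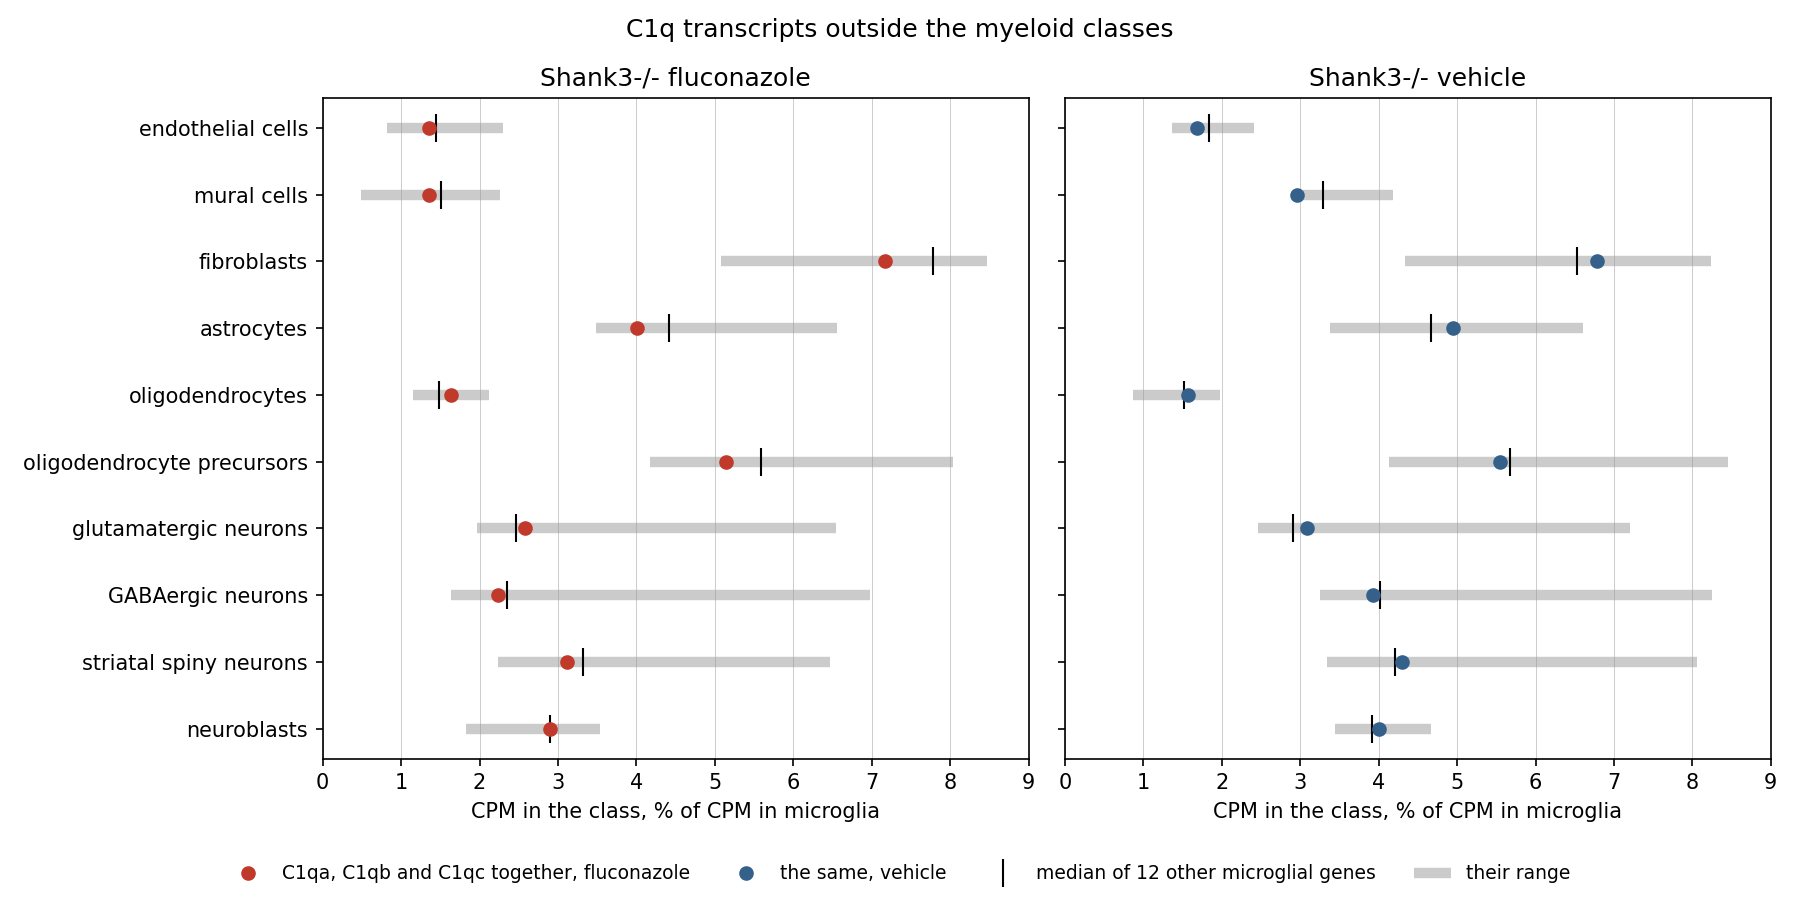
C1q (points, 3 chains summed) in 10 classes as a percentage of its microglial CPM, fluconazole on the left and vehicle on the right, with the range (grey) and median (tick) of 12 other microglial genes. The C1q points follow the yardstick from class to class, from 1.35% to 7.18% in the fluconazole and 1.57% to 6.79% in the vehicle library.

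Summed over each class outside the myeloid ones, C1q was lower in the fluconazole library. Its summed CPM was lower there in 10 of 10 classes, and in 8 of them the interval lay below 0. The widest gaps were in mural cells, at 163 CPM with fluconazole and 402 CPM with vehicle (log2 ratio -1.30, -1.51 to -1.10), and in GABAergic neurons, at 269 CPM with fluconazole and 535 CPM with vehicle (log2 ratio -0.99, -1.11 to -0.87). Neuroblasts stood at -0.64, striatal spiny neurons at -0.64, endothelial cells at -0.49, astrocytes at -0.48 and glutamatergic neurons at -0.43. Single clusters did not all share the direction: of 23 named clusters in these classes, 20 were lower in the fluconazole library and 3 higher, with 18 intervals below 0 and 1 above. Astrocytes were split, at -0.95 (-1.09 to -0.80) in the larger cluster and 0.39 (0.19 to 0.59) in the cluster led by Aldoc and Mt3. Of the glutamatergic clusters, 2 lay near 0, at -0.03 (-0.15 to 0.09) and -0.10 (-0.23 to 0.03).

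Depth and the summed microglial markers also differed between the libraries, but not in step with these ratios in every class. Fluconazole barcodes were deeper in all 10 classes, by log2 ratios of median UMIs of 0.16 (endothelial cells) to 0.51 (glutamatergic neurons). The 11 microglial markers summed to a lower CPM in the fluconazole library in 7 of the 10. They were not lower in astrocytes (787 CPM with fluconazole and 779 CPM with vehicle), oligodendrocyte precursors (1002 CPM with fluconazole and 989 CPM with vehicle) and fibroblasts (1208 CPM with fluconazole and 1155 CPM with vehicle). In mural cells those markers stood at 254 CPM with fluconazole and 563 CPM with vehicle, and in GABAergic neurons at 430 CPM with fluconazole and 715 CPM with vehicle. Counted per barcode, C1q was lower in the fluconazole library in 7 of 10 classes, and a glutamatergic barcode held 3.88 C1q UMIs in the fluconazole and 3.84 in the vehicle library. Without the top 1% of barcodes the CPM was lower in 10 of 10 classes, from -1.07 to -0.25, and mural cells stood at -0.74. With doublets kept, mural cells stood at -0.53. What part depth, doublets or free RNA have in these ratios was not tested.

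Blood leukocytes were the only named class outside microglia and border macrophages with C1q above 1000 CPM, at 1539 CPM (1437 to 1647) in the fluconazole library (98 barcodes) and 1157 CPM (1095 to 1222) in the vehicle library (250 barcodes). In the fluconazole library 16.1% of these UMIs lay in 1 barcode and in the vehicle library 8.91%. No C1q UMI was found in 49.0% of fluconazole and 43.2% of vehicle leukocyte barcodes, so the level of the class comes from part of its barcodes.

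C4b encodes the form of C4 that carries the cascade on from C1. It was highest in border macrophages, at 85.2 CPM (65.9 to 108) in the fluconazole library from 66 UMIs and 91.4 CPM (71.0 to 116) in the vehicle library from 68 UMIs, a log2 ratio of -0.10 (-0.61 to 0.41). A C4b UMI was found in 23.3% of fluconazole and 18.4% of vehicle border macrophage barcodes, against 0.29% of fluconazole and 0.38% of vehicle microglial barcodes. Median depth was 5853 UMIs in fluconazole and 4497 UMIs in vehicle border macrophages, close to that of microglia. C4b thus differed between macrophage classes with similar C1q levels. C4a, a near-identical neighbour at chr17:34809092-34823460, had 0 UMIs in fluconazole and 2 UMIs in vehicle border macrophages, and how the counting split reads between the copies is not given in the sources used here.

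Fibroblasts, astrocytes and oligodendrocytes carried C4b at lower levels. Fibroblasts stood at 21.4 CPM with fluconazole and 22.6 CPM with vehicle, astrocytes at 12.7 CPM (8.57 to 18.1) in the fluconazole and 21.3 CPM (15.5 to 28.6) in the vehicle library, and oligodendrocytes at 9.86 CPM with fluconazole and 9.57 CPM with vehicle. The intervals of fibroblasts and astrocytes overlap, so their order is not resolved. Microglia (0.47 CPM with fluconazole and 0.79 CPM with vehicle) and glutamatergic neurons (0.50 CPM with fluconazole and 0.78 CPM with vehicle) stood below all 3, with intervals apart.

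In astrocytes C4b was lower in the fluconazole library, from 30 fluconazole and 44 vehicle UMIs, with a log2 ratio of -0.75 (-1.47 to -0.04). Of the 2 astrocyte clusters, the cluster led by Aldoc and Mt3 had 9 fluconazole and 22 vehicle UMIs (log2 ratio -1.57, -2.87 to -0.39), and the larger cluster had 21 fluconazole and 22 vehicle UMIs (log2 ratio -0.20, -1.13 to 0.73). The difference between the clusters was not tested. Endothelial cells stood at 3.37 CPM with fluconazole and 1.94 CPM with vehicle (log2 ratio 0.80, 0.00 to 1.64), and 29 of the 40 fluconazole UMIs and 14 of the 21 vehicle UMIs lay in the cluster led by Lrg1, Ackr1 and Vwf, genes of venous endothelium. In oligodendrocytes the small cluster led by Klk6 and S100b reached 28.9 CPM with fluconazole and 23.4 CPM with vehicle, with 41.7% of its fluconazole and 57.1% of its vehicle UMIs in 1 barcode.

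C3, on whose cleavage all branches of the cascade meet, was rare. All kept barcodes together held 31 C3 UMIs in the fluconazole library and 63 in the vehicle library. Astrocytes held 0 of 2360822 UMIs in the fluconazole and 0 of 2064559 in the vehicle library, which allows up to 1.27 CPM with fluconazole and 1.45 CPM with vehicle (3 counts per library). Neuroblasts, oligodendrocytes and oligodendrocyte precursors also had none in either library.

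C3 was highest in blood leukocytes, at 14.7 CPM (6.35 to 28.99) in the fluconazole and 38.5 CPM (27.9 to 51.9) in the vehicle library, from 8 fluconazole and 43 vehicle UMIs. In 1 barcode lay 25.0% of the fluconazole and 20.9% of the vehicle UMIs. All of them lay in the leukocyte cluster led by the neutrophil and monocyte genes S100a8, S100a9 and Retnlg (41 fluconazole and 99 vehicle barcodes), and none in the clusters led by T and NK cell genes or by B cell genes. The log2 ratio over the class was -1.39 (-2.69 to -0.28), and -1.35 (-2.65 to -0.24) in that cluster. The marker level of the class differed as well: its 12 markers, all detected in both libraries, summed to 3624 CPM with fluconazole and 23568 CPM with vehicle. Its clusters, in the order named above, held 41, 40 and 17 fluconazole and 99, 95 and 56 vehicle barcodes. What part the marker level or the cluster mix has in the C3 ratio was not tested. Microglia had 1.20 CPM of C3 (0.71 to 1.90) in the fluconazole library, against 0.52 CPM (0.23 to 1.03) in the vehicle library. Their log2 ratio was 1.19 (-0.08 to 2.60), with UMIs in 11 of 2434 fluconazole and 8 of 3184 vehicle barcodes.

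The receptors of the released fragments were myeloid genes. C3ar1, the receptor of C3a, stood at 374 CPM (364 to 384) in fluconazole microglia and 379 CPM (370 to 389) in vehicle microglia, a log2 ratio of -0.02 (-0.07 to 0.03). Border macrophages stood at 404 CPM with fluconazole and 433 CPM with vehicle (log2 ratio -0.10, -0.33 to 0.13) and blood leukocytes at 40.5 CPM with fluconazole and 52.9 CPM with vehicle. Microglia and border macrophages were not resolved in either library, since their intervals overlap. A C3ar1 UMI was found in 78.1% of fluconazole and 71.3% of vehicle microglial barcodes, beside 8.30% of fluconazole and 6.95% of vehicle glutamatergic barcodes, which were deeper. At 1500 UMIs it was found in 40.0% of microglial barcodes in either library.

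C5ar1, the receptor of C5a that draws and activates myeloid cells, was the 1 member with a higher CPM in both macrophage classes of the fluconazole library beyond counting error. It stood at 299 CPM (290 to 308) in fluconazole and 267 CPM (259 to 275) in vehicle microglia, a log2 ratio of 0.16 (0.10 to 0.23), from 4484 fluconazole and 4066 vehicle UMIs. Fluconazole border macrophages had 623 CPM (569 to 681), against 525 CPM (475 to 580) in vehicle ones. Their log2 ratio was 0.25 (0.05 to 0.44), which turned to -0.038 with barcodes thinned to 1500 UMIs. The order of classes was the same in both libraries: border macrophages first, microglia next with intervals apart, then blood leukocytes at 77.2 CPM with fluconazole and 77.1 CPM with vehicle.

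Within microglia C5ar1 varied more than C3ar1. It stood at 420 CPM with fluconazole and 375 CPM with vehicle in cluster 0, led by chemokine genes, at 265 CPM with fluconazole and 235 CPM with vehicle in cluster 1, at 188 CPM with fluconazole and 172 CPM with vehicle in cluster 2 and at 103 CPM with fluconazole and 110 CPM with vehicle in cluster 3, with the intervals of successive clusters apart in both libraries. C3ar1 followed the same order over a narrower range, at 417.5 CPM with fluconazole and 413 CPM with vehicle in cluster 0 and 242 CPM with fluconazole and 258 CPM with vehicle in cluster 3. The C5ar1 ratio was 0.16 (0.08 to 0.25) in cluster 0 and 0.17 (0.03 to 0.31) in cluster 1, 0.13 (-0.02 to 0.28) in cluster 2 and -0.09 (-0.60 to 0.41) in cluster 3. Cluster 0 held 37.4% of fluconazole and 30.6% of vehicle microglia, so the cluster mix moved with the C5ar1 ratio, whose mean over the 4 clusters was 0.092. The part of the mix in the class ratio was not tested.

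Outside the myeloid classes the receptors were low. C3ar1 stood at 0.57% to 8.32% of its microglial CPM in the fluconazole library and at 1.24% to 7.46% in the vehicle library, and C5ar1 at 0.68% to 3.31% in the fluconazole and at 0.73% to 5.60% in the vehicle library. C5ar1 lay below the yardstick median of the 12 microglial genes in 9 of 10 classes in either library. C3ar1 lay within the range of the 12 in 9 of 10 classes in the fluconazole and in 5 of 10 in the vehicle library. In glutamatergic neurons C3ar1 stood at 8.73 CPM with fluconazole and 9.32 CPM with vehicle and C5ar1 at 6.65 CPM with fluconazole and 7.32 CPM with vehicle.

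**Figure D4:**
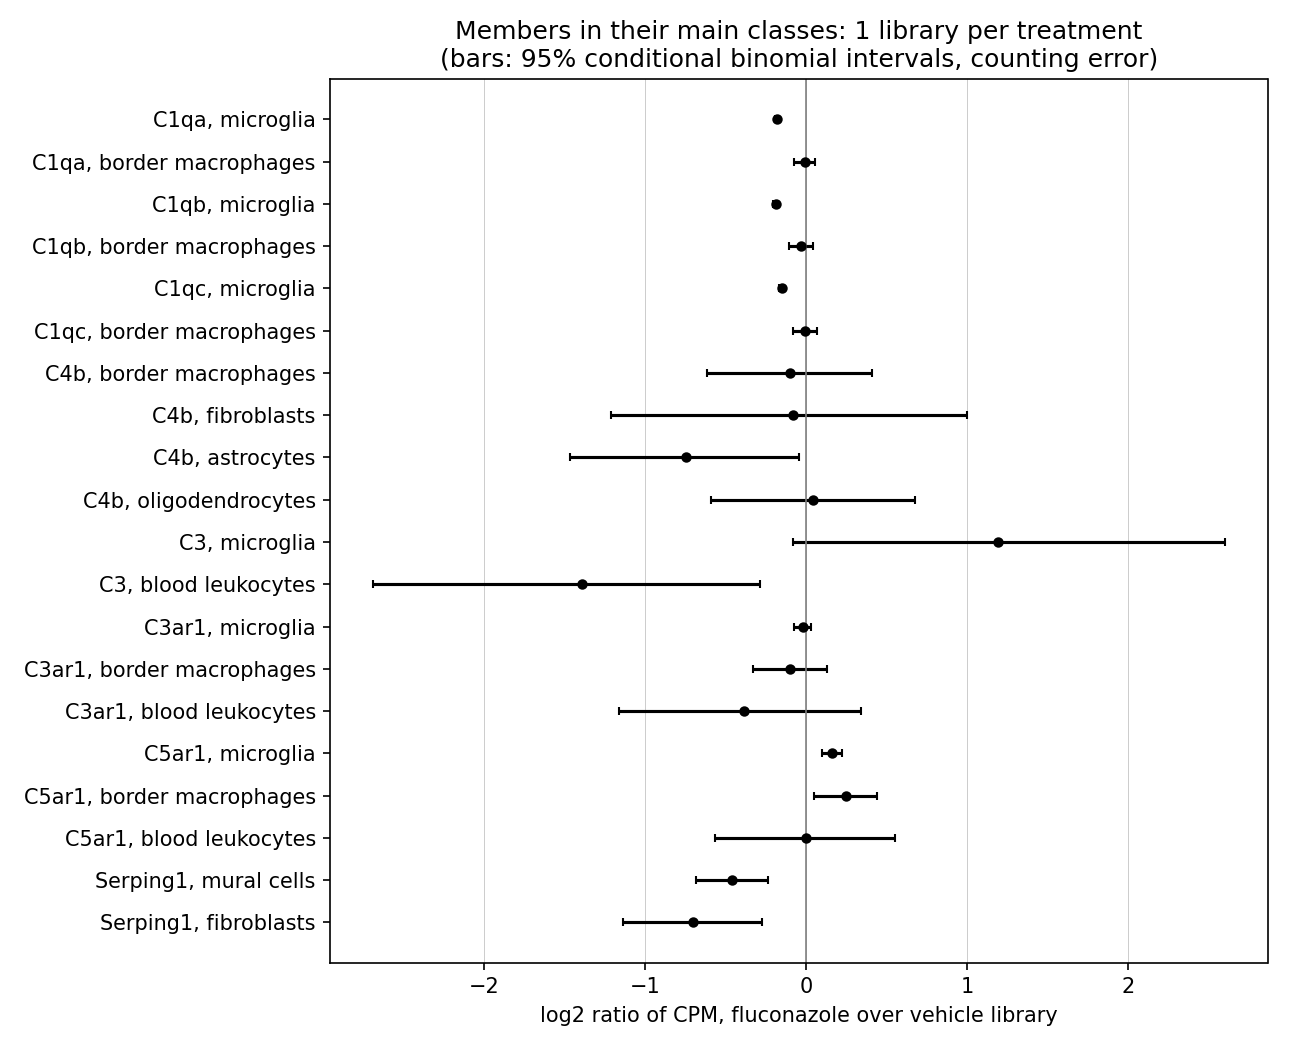
Log2 ratio of CPM, fluconazole over vehicle library, for each gene in classes chosen for the figure, with 95% conditional binomial bars for counting error and 1 library per treatment. Other classes with a ratio, such as endothelial cells and neurons, are not drawn. The C1q chains in microglia lie between -0.19 and -0.15, C5ar1 in microglia at 0.16, and Serping1 in mural cells and fibroblasts at -0.46 and -0.70.

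Serping1, the inhibitor of the C1 proteases, was highest in mural cells and fibroblasts and low in the cells rich in C1q. Mural cells, the pericytes and smooth muscle cells of vessels, stood at 174.5 CPM (156 to 195) in the fluconazole and 239.8 CPM (215 to 267) in the vehicle library, from 327 fluconazole and 338 vehicle UMIs. Fibroblasts stood at 109 CPM (84.1 to 138) in the fluconazole and 177 CPM (150 to 206) in the vehicle library, from 66 fluconazole and 156 vehicle UMIs. Both were lower in the fluconazole library, with log2 ratios of -0.46 (-0.68 to -0.23) in mural cells and -0.70 (-1.14 to -0.27) in fibroblasts. Microglia stood at 1.00 CPM with fluconazole and 1.12 CPM with vehicle, and border macrophages had 0 fluconazole and 3 vehicle UMIs.

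The 3 mural clusters ranged widely. The cluster led by the pericyte genes Abcc9 and Kcnj8 stood at 60.4 CPM with fluconazole and 99.8 CPM with vehicle, that led by the contractile genes Tagln, Acta2 and Myh11 at 238.5 CPM with fluconazole and 304 CPM with vehicle, and a cluster led by Ccl19 and Col3a1, a collagen gene of fibroblasts, at 384 CPM with fluconazole and 422 CPM with vehicle. Their ratios were -0.72 (-1.31 to -0.15), -0.35 (-0.64 to -0.06) and -0.14 (-0.62 to 0.34). Of the 2 fibroblast clusters, that led by Slc6a13 and Dcn stood at 142 CPM with fluconazole and 269 CPM with vehicle (log2 ratio -0.92, -1.44 to -0.42), with 17.6% of the vehicle UMIs in 1 barcode. The other, led by Slc47a1 and Bnc2, stood at 72.6 CPM with fluconazole and 63.1 CPM with vehicle (log2 ratio 0.20, -0.71 to 1.10).

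Serping1 was also found in an unnamed cluster with mural and endothelial markers, led by Rgs5 and Casq2, at 44.4 CPM with fluconazole and 89.8 CPM with vehicle (log2 ratio -1.02, -1.44 to -0.60). Endothelial cells themselves stood at 1.86 CPM with fluconazole and 2.40 CPM with vehicle. Thus 4 of the 6 clusters with Serping1 above 40 CPM were lower in the fluconazole library beyond counting error, and the other two had intervals that include 0.

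**Figure D5:**
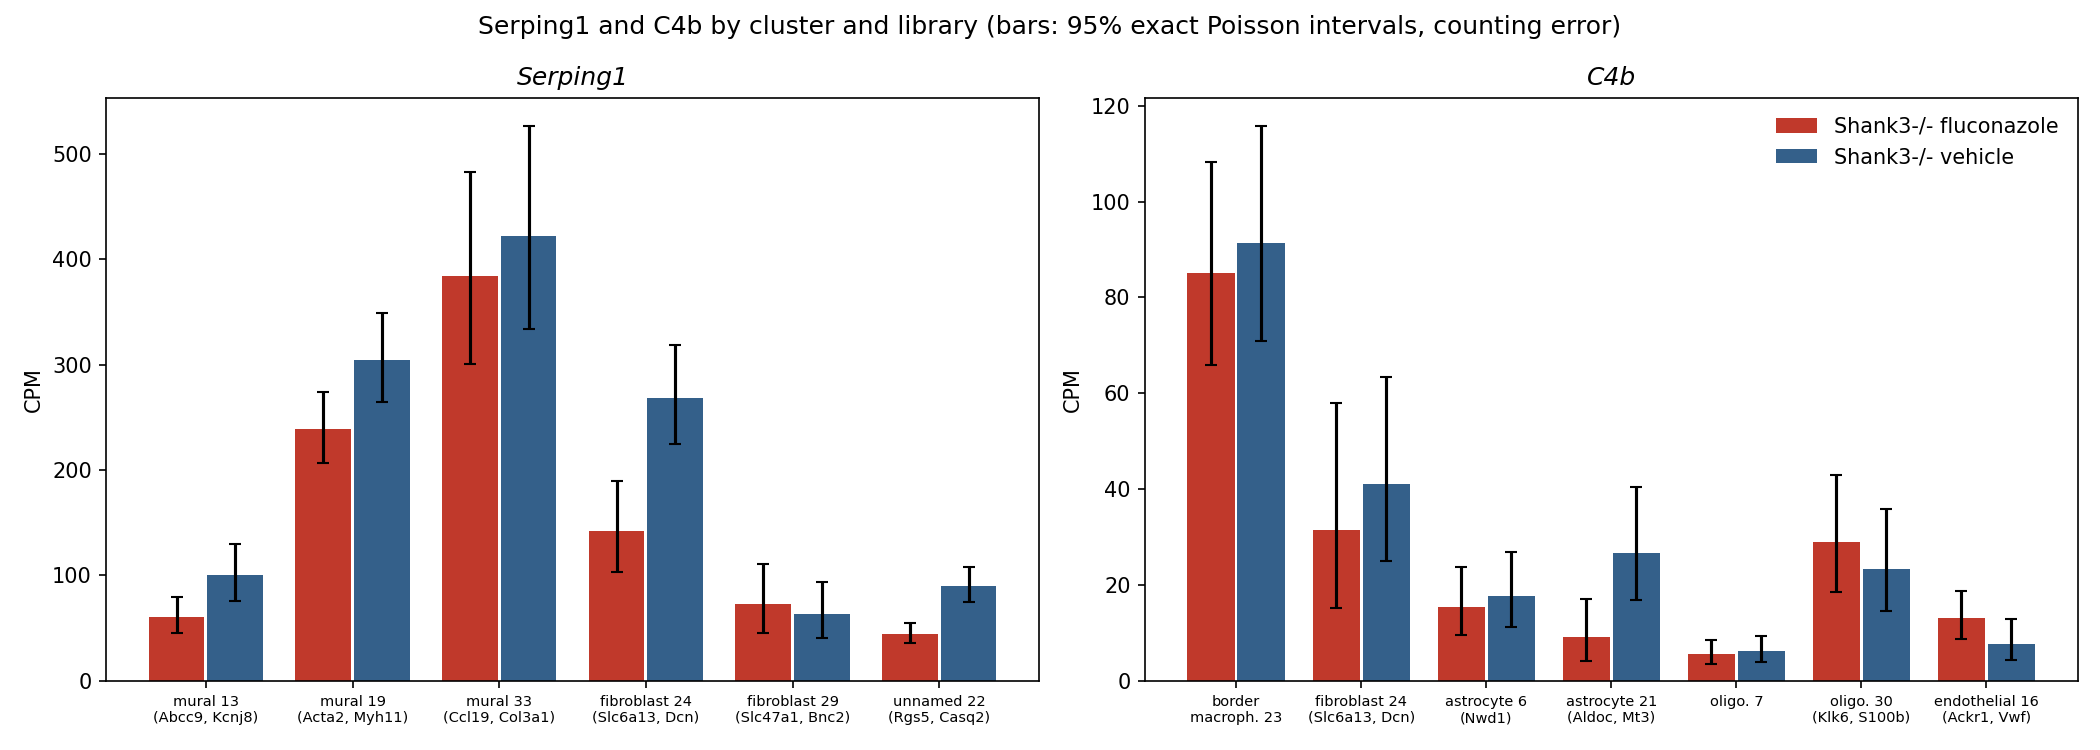
CPM of Serping1 (left) and C4b (right) in clusters chosen for the figure, fluconazole bars left of vehicle bars, with 95% exact Poisson bars for counting error. Serping1 is highest in the mural cluster led by Ccl19 and Col3a1 (384 CPM with fluconazole and 422 CPM with vehicle), and C4b in border macrophages (85.2 CPM with fluconazole and 91.4 CPM with vehicle).

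Genes with the most similar pattern were sought over 26 points (13 classes in 2 libraries, each point a class sum) among 10690 genes by Pearson's r of log2(CPM + 1). Nearest to C1qa were C1qc (0.999), C1qb (0.998) and Csf1r (0.987), the receptor gene on which microglia depend. C3ar1 was nearest to Fcrls (0.985), C1qc (0.982) and C1qa (0.981), and C5ar1 to P2ry6 (0.983), Fcgr3 (0.979) and Plek (0.977). C4b was nearest to Apoe (0.911), Eps15 (0.831) and Slc26a11 (0.828), Serping1 to Ogn (0.951), Tbx18 (0.943) and Tbx15 (0.943), and C3 to Gpr132 (0.943), Ifitm6 (0.934) and Runx3 (0.931).

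The rest of the pathway was read from a list of 56 other complement genes. Of these, 38 had at least 20 UMIs in the class where each was highest, 23 of them with a higher and 15 with a lower CPM in the fluconazole library, at a median log2 ratio of 0.05. The intervals of 22 of the 38 included 0. The share of all genes whose intervals exclude 0 is not given here, for the whole list or for the roles below. At least 50 CPM were reached by 25 of the 56. No gene of the terminal pathway, whose products form the pore, was among these 25.

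Recognition and activation genes other than C1q were highest in several classes, and those that reached 50 CPM in border macrophages, mural cells and fibroblasts. Border macrophages held Fcna, a lectin pathway ficolin, at 115 CPM with fluconazole and 84.7 CPM with vehicle (log2 ratio 0.44, -0.04 to 0.93), C2, the partner of C4 in the classical convertase, at 54.2 CPM with fluconazole and 64.5 CPM with vehicle, and Cfp, properdin, at 64.5 CPM with fluconazole and 88.7 CPM with vehicle. Mural cells held C1s1, a protease attached to C1q, at 59.8 CPM with fluconazole and 46.8 CPM with vehicle (log2 ratio 0.35, -0.10 to 0.81). Colec12, a scavenger lectin, stood at 837 CPM with fluconazole and 807 CPM with vehicle in fibroblasts. Of the 6 lectin pathway genes with a ratio, 2 were higher and 4 lower in the fluconazole library, and 3 of the lower ones, named after their values were seen, had intervals below 0. These 3 were at least 1.5-fold lower, each in another class. Of all genes with at least 20 UMIs, 8.48% were that much lower in GABAergic neurons, 7.28% in mural cells and 18.0% in blood leukocytes. Masp2, a lectin pathway protease, had 43 fluconazole and 76 vehicle UMIs in GABAergic neurons (log2 ratio -0.75, -1.33 to -0.19). Colec11, a soluble lectin, had 23 fluconazole and 31 vehicle UMIs in mural cells (log2 ratio -0.84, -1.69 to -0.02). Fcnb, a ficolin, had 1 fluconazole and 19 vehicle UMIs in blood leukocytes (log2 ratio -3.21, -8.59 to -0.56), the class whose marker sum differed between libraries.

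Soluble regulators were found in mural cells and astrocytes. Vtn, vitronectin, which blocks the pore, stood at 8355 CPM with fluconazole and 7232 CPM with vehicle in mural cells (log2 ratio 0.21, 0.17 to 0.24). Vtn is 1 of the 10 markers used to name mural cells, so its peak in that class follows in part from the naming. Clu, clusterin, stood at 834 CPM with fluconazole and 923 CPM with vehicle in astrocytes (log2 ratio -0.15, -0.24 to -0.05).

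Of 13 membrane regulators with a ratio, 11 were higher and 2 lower in the fluconazole library, at a median of 0.18. They were read in different classes, where the median over all genes ran from -0.05 (striatal spiny neurons) to 0.04 (oligodendrocyte precursors). The intervals of 7 of the 13 included 0 and none of the 13 reached 1.5-fold. Of all genes, 3.51% (glutamatergic neurons) to 11.6% (oligodendrocyte precursors) were that much higher in these classes. From 4.74% (endothelial cells) to 18.0% (blood leukocytes) were that much lower. The share of all genes higher at any size is not given here. Csmd1, a large neuronal membrane protein that limits the cascade, stood at 6749 CPM with fluconazole and 6673 CPM with vehicle in glutamatergic neurons (log2 ratio 0.02, 0.01 to 0.03), and Csmd3 at 2354 CPM with fluconazole and 2283 CPM with vehicle in oligodendrocyte precursors. Sez6l2 stood at 677 CPM with fluconazole and 599 CPM with vehicle in oligodendrocytes (log2 ratio 0.18, 0.10 to 0.25).

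Of 8 receptors other than C3ar1 and C5ar1 with a ratio, 4 were higher and 4 lower in the fluconazole library. The interval lay above 0 for 1 of the higher and below 0 for 3 of the lower, and 4 of the 8 included 0. The share of all genes whose intervals exclude 0 is not given here, so these counts have no background beside them. Of the 8, 1 was at least 1.5-fold higher and 0 were that much lower. In the classes where they were read, 3.75% (microglia) to 10.1% (blood leukocytes) of all genes were that much higher. From 4.74% (endothelial cells) to 18.0% (blood leukocytes) were that much lower. Itgam, the alpha chain of complement receptor 3, stood at 401 CPM with fluconazole and 428 CPM with vehicle in microglia (log2 ratio -0.09, -0.14 to -0.04) and Calr, which can bind C1q, at 354 CPM with fluconazole and 394 CPM with vehicle (log2 ratio -0.16, -0.21 to -0.10). Cd93, once described as a C1q receptor, stood at 322 CPM with fluconazole and 433 CPM with vehicle in endothelial cells (log2 ratio -0.43, -0.49 to -0.37).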

How the data were processed

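Transcripts were counted in 2 mouse brain libraries, 1 per treatment (10x Genomics 3′ chemistry per the labels' protocols). The values used are UMI counts per gene and barcode, raw and unnormalized, as deposited by the authors for barcodes already called, each with at least 500 UMIs. Cell Ranger is named in version 8.0.1 by the matrix header and in version 9.0.0 by the submitters' processing notes, which also list R 4.0.3, Seurat 4.0.0 and mm10. Intron counting and the annotation are not given in the sources used here: 31961 of 33696 gene identifiers, the 8 members included, are in GENCODE vM21, so counting used another annotation. Gene coordinates and promoter sequences are RefSeq's for GRCm38.p6.

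Kept barcodes had 500 genes or more and no more than 5% mitochondrial UMIs, and doublets called by Scrublet in each library were left out, 517 (4.09%) in the fluconazole and 617 (4.13%) in the vehicle library (scanpy 1.11.5). Both libraries were clustered together (2000 variable genes per library, 30 components, 15 neighbours, Leiden resolution 1, leidenalg 0.10.2) without the 8 members and 56 other complement genes, so the members' levels did not make the clusters. Of 37 clusters, 31 were named. A name required 3 or more markers of the class that exceeded the remaining clusters 2-fold or more and were present in 10% of the cluster's barcodes or more. The 6 clusters with low UMI counts and no leading marker, or with markers of a second class, stayed unnamed (9.15% of fluconazole and 7.62% of vehicle barcodes). The class names may differ from the authors' own.

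UMIs were summed per class and library. Intervals at 95% are exact Poisson for CPM, Clopper-Pearson for shares and conditional binomial for ratios. They treat UMIs as independent and so are too narrow where few barcodes hold the UMIs. Genes with under 20 UMIs over both libraries got no ratio. No test between treatments was run, and "higher" or "lower" compares 2 libraries. The ratio and its interval were tested on simulated counts. The members and gene lists were chosen with earlier results of these data known. Named are all members, listed pathway genes reaching 50 CPM (at most the 3 highest per role), and the 3 genes most like each member. Some listed genes are not reported here. Alternatives were doublets kept, a stricter filter, another scaling factor, means over barcodes, thinning, another resolution, clusters made with all variable genes, Malat1 bins and the omission of top barcodes. Added after seeing the data were means within microglial clusters, Serping1 without 1 mural cluster and 3 treatments of the C1q background.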

Additional observations from a re-analysis of the deposited data

How the results depend on the processing

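The data hold 1 library per treatment, so no setting replaces replication, and the low counts of C3, C4b and Serping1 limit their ratios. Across 133 values under other settings, 97 stayed within counting error of the main value or within 1.5 times its count. C1qa, C1qb and C1qc in microglia stayed negative under all 10 settings, as did Serping1 in mural cells under 9 (-0.60 to -0.35) and C3 in blood leukocytes under 8 (-1.73 to -0.89). C5ar1 in microglia stayed positive under 10 (0.09 to 0.20). C3ar1 in microglia lay between -0.05 and 0.00. The scaling factor shifted all ratios in blood leukocytes by -0.11.

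Means within microglial clusters gave -0.12 for C1qa, -0.13 for C1qb, -0.12 for C1qc and 0.092 for C5ar1. Thinned barcodes in border macrophages gave -0.63 for C4b, -0.43 for C3ar1 and, reversed, -0.038 for C5ar1. With at least 100 UMIs, 0 members were 1.5-fold higher in microglia, since C3 then had no ratio. The C1q ratio in GABAergic neurons was -0.76 with doublets kept and -0.68 per barcode. In mural cells it was -0.53 with doublets kept, -0.74 without the top 1% of barcodes and -0.93 per barcode.

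The C1q background, as a percentage of the microglial value (fluconazole, then vehicle), moved most. With doublets kept it was 3.32% and 3.92% in glutamatergic neurons, 8.14% and 8.47% in astrocytes, 3.07% and 3.60% in oligodendrocytes, and 1.80% in vehicle endothelial cells. Without the top 1% of barcodes it was 1.97% and 2.50% in glutamatergic neurons, 1.98% and 3.05% in astrocytes, 1.16% and 1.22% in oligodendrocytes, and 1.08% and 1.31% in endothelial cells. In UMIs per barcode it was 5.22% and 5.90%, 2.35% and 2.83%, 2.59% and 2.60%, and 0.993% and 1.42% in the same classes. The cause was not tested. No paired analysis was possible because each treatment has 1 library.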

Other observations

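Small microglial clusters, under 50 barcodes in at least 1 library, added to the range of the receptors. The cluster led by Lgals3, Clec7a, Lpl, Itgax, Cst7 and Apoe, genes of disease-associated microglia, had the highest C3ar1 of all microglial clusters, at 593 CPM (502 to 696) in 31 fluconazole barcodes and 571 CPM (482 to 672) in 41 vehicle barcodes. Its C5ar1 stood at 340 CPM (272 to 420) in the fluconazole and 445 CPM (367 to 535) in the vehicle library, and its C1q sum at 13840 CPM with fluconazole and 15557 CPM with vehicle. A cluster led by the interferon-induced genes Ifit3, Oasl2 and Mx1 held 25 fluconazole and 146 vehicle barcodes, with C1q at 13049 CPM (12492 to 13625) in the fluconazole and 15174 CPM (14899 to 15454) in the vehicle library, C3ar1 at 436 CPM with fluconazole and 375 CPM with vehicle and C5ar1 at 234 CPM with fluconazole and 233 CPM with vehicle.

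C5ar2, the second receptor of C5a, stood at 32.7 CPM in fluconazole and 27.0 CPM in vehicle microglia, a log2 ratio of 0.28 (0.08 to 0.47), from 491 fluconazole and 412 vehicle UMIs. It did not reach the 50 CPM asked of named pathway genes and was chosen after its values were seen.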
